A study of Mus musculus with 2 samples.

Results

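Cytosolic ribosomal protein genes were chosen by symbol: Rpl or Rps followed by a digit, Rplp followed by a digit, or Rpsa, leaving out pseudogenes marked "-ps" and the Rps6k kinases. The rule took 87 of the 28692 listed genes, of which 33 are named for the small subunit and 53 for the large subunit, and 1, Rps19bp1, encodes a binding partner of a ribosomal protein. The genes lay on 19 chromosomes, with 14 on chromosome 7 and 4 on X (GENCODE vM21, GRCm38), and 86 are annotated as protein coding. At least 1 unique molecular identifier (UMI, a tag that marks 1 captured RNA molecule) was found for 86 of them, and Rpl10l had none, which allows a level of up to 0.183 CPM (3 counts of all UMIs kept, scaled to 1e6). Over the barcodes kept, they held 1852100 UMIs, or 11.3% of the total.

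Ribosomal proteins bind ribosomal RNA to form the small subunit, which reads the messenger RNA, and the large subunit, which joins amino acids. Their messenger RNAs are among the most abundant in growing cells, and many start with a run of pyrimidines, the 5′ terminal oligopyrimidine start, through which their translation follows growth signals. Mature neutrophils are short-lived cells that stop dividing in the marrow and carry little RNA, whereas monocytes and macrophages stay active in protein synthesis.

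The cells came from tumors that 4T1 cells, a mouse triple-negative mammary carcinoma line, formed in the mammary fat pad of adult female BALB/c mice, all treated with anti-PD1. The parental 4T1p tumors resist this therapy, whereas 4T1m is a polyclonal population made by exposing 4T1 cells to the mutagen MNNG, and its tumors respond. GR-1+ cells, which carry Ly6C or Ly6G, were taken by magnetic positive selection and sequenced with 10x Genomics 3′ v3 chemistry as 1 library per tumor type, and whether animals were pooled is not given in the sources used here. With 1 library per condition nothing could be tested, no p-value is given, and the 95% intervals (exact binomial or Poisson) cover counting error only.

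The 2 libraries held 4390 barcodes, and 3220 were kept, 1128 of the library labelled 4T1p and 2092 of the library labelled 4T1m, with no barcode sequence shared. Median UMIs per barcode were 2066 and 2763 in the deposited files, the reverse of the order that the study's methods give for the labels, so every direction between the libraries rests on the file labels. The labels also differ in cell makeup, since cluster 4, led by Tmem176a, Ccl8 and C1qb, held 265 barcodes (4T1p) and 106 (4T1m), and cluster 1, led by Vcan, Thbs1 and Ednrb, 96 and 333. The methods give the same 2 medians under the opposite labels, so the names are exchanged either in the files or in the methods text. Which of these holds the exchange cannot be settled with these files alone. The study describes C1q, MHC class II and Tmem176b genes in cells enriched in 4T1m tumors, whereas cluster 4 held more barcodes labelled 4T1p. The study kept only cells with Ptprc, a filter not used for these counts. A Ptprc UMI was found in 19.6% (4T1p) and 46.2% (4T1m) of the cluster 4 barcodes. If the file names are the exchanged ones, every direction between the libraries below is reversed for the tumor types. Below, a value followed by (4T1p) or (4T1m) is that of the library so labelled, and paired values of the libraries are in that order. Of 11 clusters, found after the ribosomal protein genes had been taken out of the variable genes, 4 were monocytic-like (clusters 1, 4, 5 and 7, 1349 barcodes) and 4 granulocytic-like (clusters 2, 3, 6 and 8, 1274 barcodes). The 10 genes of the monocytic list summed to 13135 to 47803 UMIs per 1e6 in the monocytic-like clusters and to 536 to 1591 in the granulocytic-like ones. A B cell-like cluster held 35 barcodes and a T cell-like cluster 28. Cluster 0, with 534 barcodes and a median of 906.5 UMIs, was left unnamed because its barcodes held few UMIs and none of the lineage markers was among its 10 leading genes.

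The sequence around the annotated start was read for 66 of the 87 genes (RefSeq, GRCm38.p6). A run of at least 8 C or T within 20 bases before to 30 bases after the start was found in 34 of them, or 51.5%, beside 21.5% of all 27025 genes with a start. The letters CGGAAG, searched on both strands of the 300-base promoter, were in 66.7% of the genes and 18.8% of all promoters, and TATAAA was in 10.6% and 15.7%. The following windows, from 12 bases before to 18 bases from the start on, are those of the genes on which the results below turn, with the longest unbroken run of C and T in capitals. Rps18 and Rpl12 were among the genes that differed most between the lineages, Rps9, Rps27 and Rps27rt among those that differed least, Rps26 was lower in the library labelled 4T1m, and Rpl22l1 is a paralog.
Rps18 (chr17:33955648-33955677, minus strand): gtcacttccgCTCTCTCTTCCacaggaggc
Rpl12 (chr2:32961700-32961729, plus strand): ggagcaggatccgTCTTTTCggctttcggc
Rps9 (chr7:3704029-3704058, plus strand): gccttgTCTCTCTTTgtctcgggcctgagt
Rps27 (chr3:90213631-90213660, minus strand): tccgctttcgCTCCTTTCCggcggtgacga
Rps27rt (chr9:114982722-114982751, minus strand): acttaTCCCTTgctttccggcggtgacgac
Rps26 (chr10:128626489-128626518, minus strand): gggcaagccgccggaTCCTCTTTCgagtct
Rpl22l1 (chr3:28805496-28805525, plus strand): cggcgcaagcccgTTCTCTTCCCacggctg
The windows of Rps27 and Rps27rt, which lie on different chromosomes, shared the 17-base stretch ctttccggcggtgacga. A run of at least 8 was present in Rps18 as well as in Rps9 and Rps27.

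The first comparison was between the lineages. Ribosomal protein genes took 13.3% of the UMIs of monocytic-like cells (95% interval 13.29 to 13.33%) and 2.66% of those of granulocytic-like cells (2.65 to 2.68%), a 5.003-fold difference, or 2.32 on the log2 scale (2.31 to 2.33). In the library labelled 4T1p the shares were 15.1% and 3.05%, and in the library labelled 4T1m 12.2% and 2.56%. The median barcode stood at 14.5% in monocytic-like and 2.46% in granulocytic-like cells, and 94.2% of monocytic-like barcodes lay above 6.48%, the 95th percentile of the granulocytic-like ones. Over the 6103 genes with at least 200 UMIs in both lineages together, the median log2 ratio was 0.96, on the monocytic-like side. Relative to that median the log2 difference of the share was 1.36. B cell-like and T cell-like barcodes held more than either lineage, with 20.4% and 25.4%.

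**Figure D1:**
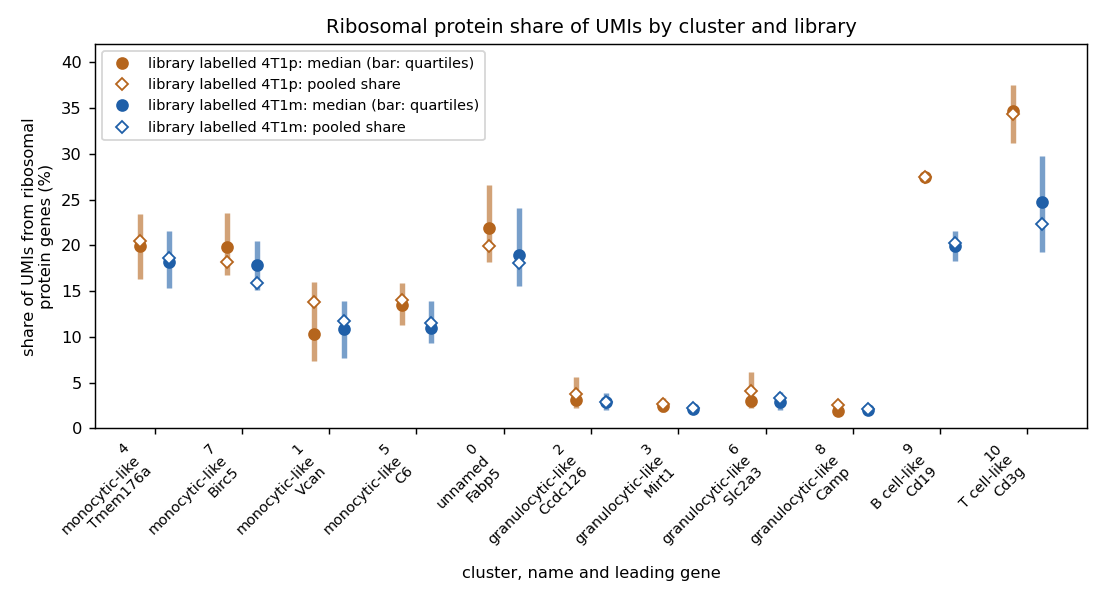
Share of UMIs from ribosomal protein genes (%) in each cluster and library. Filled points are medians over barcodes with quartile bars, open diamonds the pooled share, and cluster 9 of the library labelled 4T1p is 1 barcode. The 4 granulocytic-like clusters lie at pooled shares of 2.16 to 4.07%, below every other cluster in both libraries.

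RNA of other cells was measured beside this. The summed level of the monocytic marker list in granulocytic-like cells was 3.46% of its level in monocytic-like cells, and that of the ribosomal protein genes was 19.99%. The granulocytic list in monocytic-like cells stood at 0.719% of its level in granulocytic-like cells. Both marker lists had also named the clusters, so their low level in the other lineage was partly set by the naming. A list of 5 erythroid genes summed to 1095 CPM (counts per 1e6 UMIs) in monocytic-like and 370 CPM in granulocytic-like cells, and its part in the result was not tested. The free RNA of the suspension was not measured.

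Genes were then compared one by one as CPM, the UMIs of a gene per 1e6 UMIs summed over each lineage, with a gene called higher or lower at 1.5-fold where both lineages together held at least 200 UMIs. The 3′ chemistry counts molecules and not length, so CPM is not divided by gene length. Of 81 ribosomal protein genes with enough UMIs, 77 were higher in monocytic-like cells and none lower, where 57.8% of all 6103 genes were higher and 17% lower. Their median log2 ratio was 2.49, beside 0.96 over all genes. The small subunit had 29 of 32 genes higher and a median of 2.51, and the large subunit had 47 of 48 and 2.48. Within the library labelled 4T1p 74 of 75 genes were higher and none lower (53.9% and 20.5% of all genes), and within the library labelled 4T1m 74 of 78 were higher and none lower (56.1% and 17.5%).

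Rpl10a (ENSMUSG00000037805, GRCm38 chr17:28328471-28331033, plus strand), a large subunit protein near the site where transfer RNAs leave, had the highest ratio. Its level was 2061 CPM (4T1p) and 1570 CPM (4T1m) in monocytic-like cells, and 140 and 109 CPM in granulocytic-like cells, a log2 ratio of 3.93 (3.796 to 4.07). Both monocytic-like values lay above both granulocytic-like ones. Rps18, a protein of the small subunit head, followed at 3.73 (3.27 to 4.22), from 183 and 94.8 CPM down to 15.7 and 8.20 CPM. It was counted sparsely in granulocytic-like cells, with 1 to 7 UMIs per cluster (4T1p) and 3 to 9 (4T1m). Of the 90-base windows in the last 400 bases of the transcript, 89.4% (Rpl10a) and 53.7% (Rps18) also occur in other genes. The large subunit genes Rpl3, Rpl36a, Rpl4 and Rpl12 came next, at 3.60, 3.54, 3.41 and 3.36. Rpl3 and Rpl4 encode large core proteins of the subunit, and Rpl12 a protein at the base of the stalk that recruits translation factors.

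Rps9 (ENSMUSG00000006333) had the lowest ratio among the abundant genes. It encodes a small subunit protein that lies near the messenger RNA entry site and takes part in decoding accuracy. Its level was 3499 CPM (4T1p) and 2922 CPM (4T1m) in monocytic-like cells, and 2190 and 2426 CPM in granulocytic-like cells. The log2 ratio was 0.40 (0.37 to 0.44), and by library it was 0.68 (4T1p) and 0.27 (4T1m). Relative to the median of all genes its ratio turned to the granulocytic-like side. It gave 8.93% of all ribosomal protein UMIs in granulocytic-like cells, where it ranked 1, and 2.36% in monocytic-like cells, where it ranked 8. Rps27a, at 4.53%, was next in granulocytic-like cells. The 10 most abundant genes held 36.3% of the ribosomal protein UMIs of granulocytic-like cells and 25.1% of those of monocytic-like cells. Without Rps9 the shares of the lineages were 13.0% and 2.42%, a log2 ratio of 2.42.

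By cluster, the Rps9 levels of the lineages overlapped. They lay between 2030 and 3451 CPM in the 4 granulocytic-like clusters and between 2938 and 4761 CPM in the 4 monocytic-like ones, so that cluster 6, led by Slc2a3 and with Cxcr2 among its leading genes, stood above the monocytic-like clusters 1, 5 and 7. In that cluster the libraries had 3298 and 3473 CPM. Rps9 (GRCm38 chr7:3703993-3706897, plus strand) has no listed gene overlapping it on its strand, and 41.2% of the 90-base windows in the last 400 bases of its transcript occur in another gene, Gm5905.

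**Figure D2:**
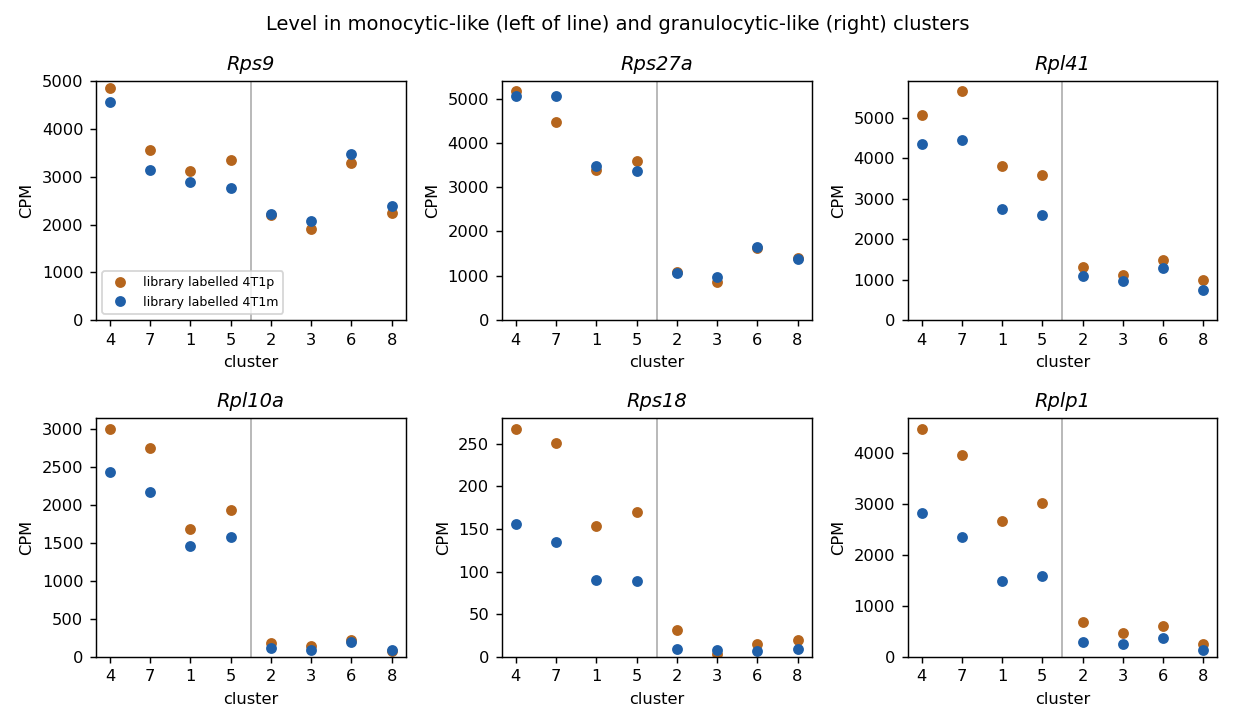
CPM of Rps9, Rps27a, Rpl41, Rpl10a, Rps18 and Rplp1 in the monocytic-like clusters 4, 7, 1 and 5 (left of the line) and the granulocytic-like clusters 2, 3, 6 and 8 (right), 1 point per library, each panel with its own axis from 0. Rps9 stays between 1911 and 4856 CPM throughout, whereas Rpl10a and Rps18 drop to a small part of their monocytic-like level, and Rplp1 of the library labelled 4T1p lies above that of the library labelled 4T1m in every cluster drawn.

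The other genes at the low end were counted sparsely. Rps27 stood at 27.3 CPM in monocytic-like and 29.3 CPM in granulocytic-like cells, with a log2 ratio of -0.10 (-0.41 to 0.22). Its paralog Rps27rt stood at 62.0 and 43.5 CPM, or 0.51 (0.27 to 0.76), and the sum of both at 89.2 and 72.8 CPM, or 0.29. Rpl10, a large subunit protein that joins late in assembly, and Rpl21 had ratios of 0.42 and 0.77, and like the Rps27 pair and Rps9 they fell on the granulocytic-like side of the median of all genes. Cell Ranger counts a read only where it belongs to a single gene, and of the 90-base windows at the transcript end 98.4% were shared with other genes for Rps27, 89.8% for Rps27rt and 100% for Rpl10. The windows were searched in all GENCODE vM21 transcripts, not only those of the listed genes, so these are not percents of reads left out. Over the 86 genes with a transcript, the 15 with the fewest UMIs above 0 had a median of 68.2% shared windows and the others 29.9%. Single genes went the other way, since Rpl36a, with 100% shared windows, held 14966 UMIs and Rpl39l, with under 10%, held 7. Over 85 genes the rank correlation of UMIs with the percent of shared windows was -0.179. For the lineage ratio, over 80 genes, it was -0.047. The part of shared windows in the levels was not tested.

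**Figure D3:**
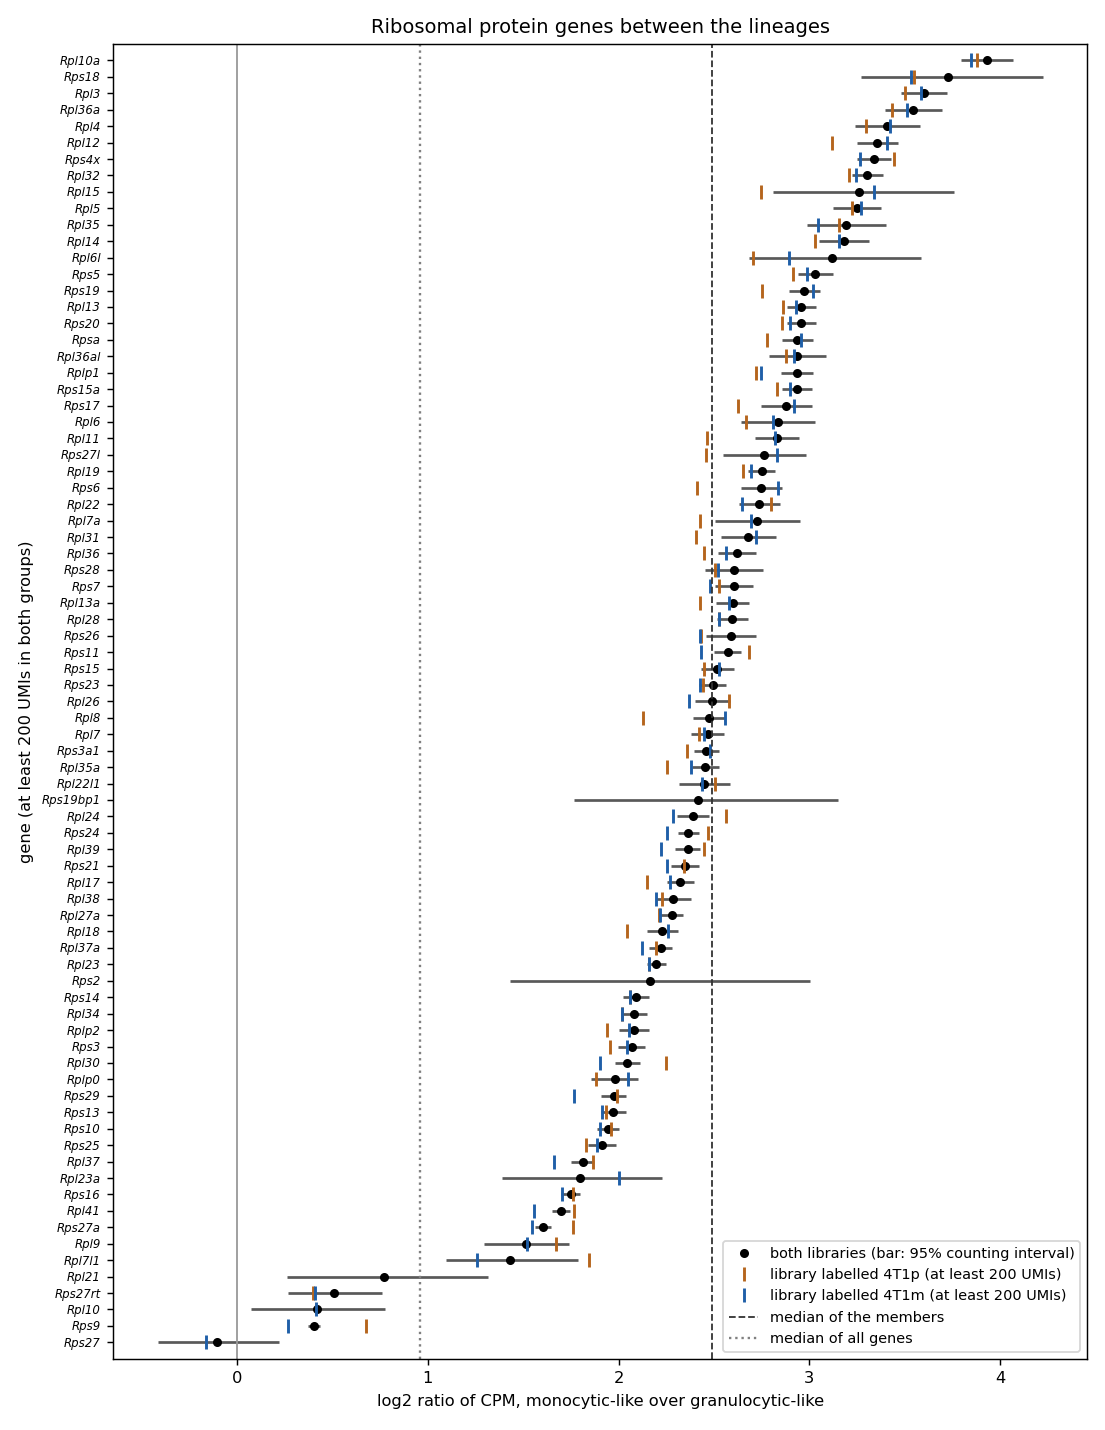
Log2 ratio of CPM, monocytic-like over granulocytic-like, of ribosomal protein genes with at least 200 UMIs, with 95% counting intervals (points), the value within each library where it held 200 UMIs (ticks), the median of all 81 such genes (dashed, 2.49) and of all genes (dotted, 0.96). All genes drawn but Rps27 have a ratio above 0, and Rps27, Rps9, Rpl10, Rps27rt and Rpl21 lie below the median of all genes.

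Levels among the genes spanned a wide range. Rpl23 had the most UMIs (55489), before Rps27a (52426), Rps24 (51419) and Rps9 (50257). At the other end stood Rpl10l with none, Rpl39l with 7, Rpl29 with 30, Rpl3l with 50 and Rpl27 with 90, too few to call. Rps27a, whose product is ubiquitin fused to a small subunit protein, had a ratio of 1.61 (3666 against 1205 CPM). Rpl41 and Rps16 also lay low in the range among the abundant genes, at 1.70 and 1.75.

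The acidic stalk of the large subunit is built from Rplp0, Rplp1 and Rplp2, whose ratios were 1.98, 2.93 and 2.08. Rpsa, a small subunit protein also known as the laminin receptor, had a ratio of 2.94, with 2509 CPM in monocytic-like and 328 CPM in granulocytic-like cells. Among the paralogs, Rpl22l1 stood at 2.45 beside 2.74 for Rpl22, Rpl36al at 2.94 beside 3.54 for Rpl36a, and Rpl7l1 at 1.43 beside 2.47 for Rpl7. Rps27l, a relative of Rps27 known as a p53 target, stood at 2.76. Rpl3l, the form of Rpl3 of striated muscle, had 17 UMIs in monocytic-like and 30 in granulocytic-like cells, below the minimum. Rps19bp1 had a ratio of 2.42.

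Genes that work with the ribosome were also compared between the lineages. At 1.5-fold, 57.8% of all 6103 genes were higher in monocytic-like cells and 17% lower. Of ribosome parts outside the symbol rule and genes listed for an oligopyrimidine start, 17 of 18 with enough UMIs were higher in monocytic-like cells. Their median was 2.38, and beside translation factors the list held genes such as Npm1, Hnrnpa1 and Nap1l1. Eef1a1, the elongation factor that brings transfer RNAs, stood at 2.82 and Gnb2l1, which encodes the small subunit scaffold Rack1, at 3.48. Fau, a small subunit protein made as a ubiquitin-like fusion, stood at -0.07 but was counted sparsely. In the library labelled 4T1m it had 25.45 CPM in monocytic-like and 24.9 CPM in granulocytic-like cells, with an interval of the ratio from -0.36 to 0.43. Ribosome biogenesis genes were higher in 15 of 16, with a median of 2.61, among them Fbl, which methylates ribosomal RNA (3.39), and Ncl, nucleolin (1.67). Mitochondrial ribosomal protein genes, which serve a separate ribosome, were higher in 58 of 63 and lower in 2, with a median of 2.39. Of 6 regulators with enough UMIs 4 were higher, with a median of 1.10, led by Larp1, which binds the oligopyrimidine start (3.67), while Eif4ebp1, an inhibitor of translation initiation, stood at -0.13.

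The second comparison was among states within each lineage. Monocytic-like cluster 4, led by Tmem176a, Ccl8 and C1qb, had the highest share of the lineage with 19.9%, and cluster 7, led by the cell cycle genes Birc5 and Top2a, had 16.9%. Clusters 5 (C6, Cxcl9, Cx3cr1) and 1 (Vcan, Thbs1, Il6) had 12.8% and 12.2%. Cluster 4 thus stood 1.55-fold above cluster 5, a log2 ratio of 0.63, and by library the ratio was 0.54 (4T1p) and 0.69 (4T1m). Depth differed with it: clusters 4 and 7 had medians of 1239 and 1581 UMIs per barcode, and clusters 5 and 1 had 13547 and 10610. Among barcodes of 2000 to 10000 UMIs alone the cluster 4 to 5 ratio was 0.93. A Ptprc UMI was found in 27.2% and 27.7% of barcodes of clusters 4 and 7, and in 83.0% and 91.6% of those of clusters 5 and 1. The study kept only cells with Ptprc, and this filter was not tried for the comparison of these clusters.

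The cluster 4 difference was spread over the gene set, with the interval above 0 for 75 of 76 genes. Of these 76 genes 52 were higher in cluster 4 by 1.5-fold and none lower, where 13.2% of all genes were higher and 36.5% lower, and the median was 0.63 against -0.20 over all genes. Rps26, a small subunit protein at the messenger RNA exit, had the highest ratio at 1.33, and Rpl9 the lowest among the genes with 200 UMIs, at 0.35. In cluster 7 against cluster 5, 11 of 76 were higher and none lower, beside 21.1% and 21.2% of all genes, with a median of 0.40 against 0.06. Rpl7l1, a paralog with a part in large subunit assembly, led there at 1.05, followed by Rps26 at 0.98 and Rps27l at 0.96. Cluster 7 also held 4302 CPM of an erythroid list of 5 genes, beside 1879 CPM in cluster 1, whose part in the result was not tested.

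In the granulocytic-like clusters the shares were 3.45% in cluster 6, 3.08% in cluster 2 (Ccdc126, Tnfrsf23), 2.37% in cluster 3 (Mirt1, Hdc) and 2.23% in cluster 8, led by the secondary granule genes Camp, Ngp and Ltf of immature neutrophils. The 34 granulocytic-like barcodes with at least 1% of UMIs from Camp, Ngp and Ltf had a share of 2.61%, and the 1084 with none had 2.71%, while 10 barcodes lay between 0.5 and 2%. The 156 barcodes with some of these UMIs but under 1% had a share of 2.49%, below both. Depth differed between these groups, with medians of 13911, 2367 and 3730.5 UMIs per barcode, and its part in the comparison was not tested. By library the shares of the 34 and the 1084 were 2.92% against 3.08% (4T1p) and 2.49% against 2.61% (4T1m). Of the 34, only 7 barcodes were of the library labelled 4T1p and 27 of the library labelled 4T1m.

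Single genes differed within that total. Between the 34 barcodes and the 1084, 6 of 65 genes were higher by 1.5-fold and 11 lower, beside 11.2% and 62.7% of all genes, and the median was -0.15 against -0.95 over all genes. Rpsa was 772 CPM in the former and 262 CPM in the latter, a log2 ratio of 1.56 (1.37 to 1.75). Rps4x and Rps20, picked after their values were seen, and Rps24, all of the small subunit, were higher by 1.04, 0.86 and 0.86, and Rpl36 stood at -1.11. Cluster 8 against the other granulocytic-like clusters showed Rplp0 at 0.74, Rpsa at 0.63 and Rps24 at 0.62, the 3 of 66 genes that were higher, while 24 were lower, beside 11.2% and 48.1% of all genes. Rpsa stood at 467 CPM (4T1p) and 428 CPM (4T1m) in cluster 8, above the 188 to 414 CPM of the other 3 granulocytic-like clusters in either library.

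**Figure D4:**
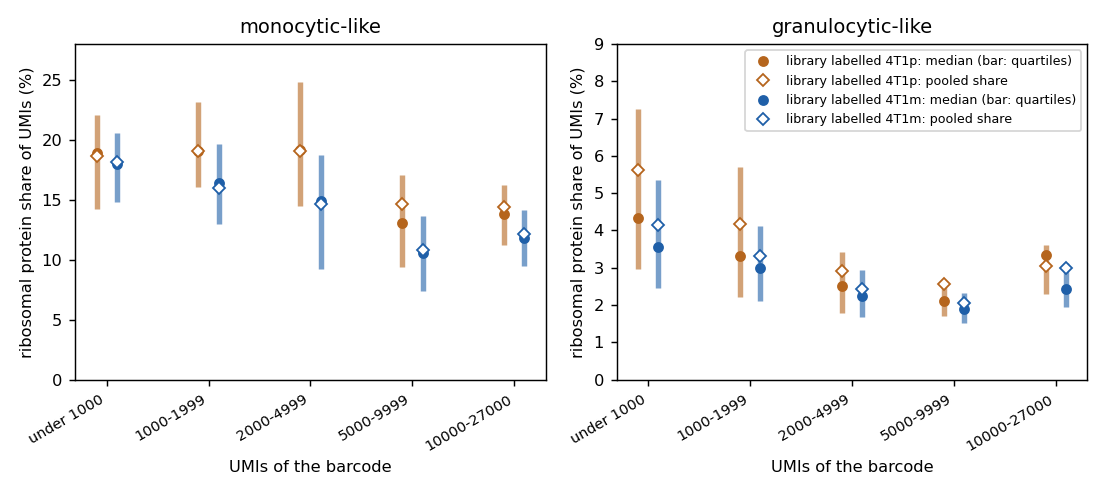
Share of UMIs from ribosomal protein genes (%) by the UMIs of the barcode, for monocytic-like (left) and granulocytic-like cells (right), each with its own axis from 0. Filled points are medians with quartile bars and open diamonds pooled shares. Monocytic-like pooled shares lie above granulocytic-like ones in every range, and in monocytic-like cells they go from 18.6 to 14.4% (4T1p) and from 18.1 to 12.2% (4T1m) between the ranges of fewest and most UMIs.

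Depth moved with the share in both lineages. Monocytic-like barcodes under 1000 UMIs had pooled shares of 18.6% and 18.1% in the libraries labelled 4T1p and 4T1m, and those with 10000 or more had 14.4% and 12.2%. Granulocytic-like barcodes under 1000 UMIs had 5.63% and 4.15%, and those of 5000 to 10000 UMIs 2.55% and 2.05%, while those above had 3.04% and 2.99%. In each range the pooled share was higher in monocytic-like cells, and lower in the library labelled 4T1m.

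The third comparison was between the libraries, which by the file labels come from resistant (4T1p) and responding (4T1m) tumors. The share was lower in the library labelled 4T1m by a log2 ratio of -0.31 (-0.31 to -0.30) in monocytic-like and -0.25 (-0.27 to -0.23) in granulocytic-like cells. It was lower in 11 of 11 clusters, and in the 9 clusters with at least 20 barcodes of each library the ratio ran from -0.36 to -0.14. The median over barcodes was lower in 9 of the 11 and higher in clusters 1 and 8. Over all barcodes kept, where lineage makeup also differs, the shares were 13.9% and 9.97%.

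Values that move with the library stand beside this. Monocytic-like barcodes of the library labelled 4T1p lay mostly in clusters 4 (265) and 5 (189) of 640, and those of the library labelled 4T1m in clusters 1 (333) and 5 (176) of 709, and the mean of the ratios within clusters was -0.21. Among barcodes of 2000 to 10000 UMIs the monocytic-like ratio was -0.50, and relative to the median of all genes, which stood at 0.14, it was -0.45. The erythroid list, of which 3 of 5 genes had a UMI in the library labelled 4T1p (Hbb-bt and Alas2 were at 0) and 5 of 5 in the other, summed to 10.1 CPM in monocytic-like cells there and 1780 CPM in the library labelled 4T1m, and to 27.8 and 459 CPM in granulocytic-like cells. The epithelial or tumor cell list summed to 21.9 and 5.21 CPM in monocytic-like cells. Of its 7 genes Krt19 was at 0 in both, while 6 were detected in clusters 4, 5 and 7 and 5 in cluster 1. The part of these in the result was not tested, and library and tumor type cannot be told apart.

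By gene, none of 79 was higher by 1.5-fold in monocytic-like cells of the library labelled 4T1m and 9 were lower, where 22.8% of all 5462 genes were higher and 6.22% lower. The median was -0.30, beside 0.14 over all genes, and the interval lay below 0 for 72 genes and above it for 4. The 9 were Rpl6l (-1.49), Rplp1 (-0.97), Rps18 (-0.95), Rps26 (-0.81), Rps29 (-0.73), Rpl10 (-0.73), Rpl11 (-0.65), Rpl15 (-0.61) and Rpl35 (-0.60). The number past 1.5-fold in either direction was 25 among barcodes of 2000 to 10000 UMIs and 19 relative to the median of all genes. The share of all genes called at these settings is not given here. At the other end Rpl23a stood at 0.51, Rplp0 at 0.22, Rpl9 at 0.19, Rpl5, which joins Rpl11 in the 5S particle, at 0.07 and Rpl22l1 at 0.00, and relative to the median of all genes the last pair fell below 0.

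Granulocytic-like cells had 5 of 66 genes lower and none higher, where 8.03% of 1993 genes were lower and 17.7% higher. These were Rplp1 (-1.004), Rpl11 (-1.003), Rps26 (-0.80), Rpl35a (-0.70) and Rpl36 (-0.59). Past 1.5-fold in either direction were 12 genes among barcodes of 2000 to 10000 UMIs and 10 relative to the median of all genes. For these settings the share of all genes is not given. The median was -0.32, beside 0.08 over all genes. Rps9, Rps27a, Rpl22l1, Rplp0 and Rpl24 had the highest ratios, at 0.15, 0.13, 0.07, 0.05 and 0.04, and the last 3 fell below 0 relative to the median of all genes.

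Rplp1 (ENSMUSG00000007892, GRCm38 chr9:61913284-61914542, minus strand) had 3175 CPM in monocytic-like cells of the library labelled 4T1p and 1615 CPM in those of the library labelled 4T1m, and 482 and 240 CPM in granulocytic-like cells. Within the 8 clusters of both lineages its ratio ran from -1.22 to -0.66. Rplp0, to which Rplp1 and Rplp2 bind in the stalk, stood at 525 and 612 CPM in monocytic-like and 143 and 148 CPM in granulocytic-like cells, and its ratio was between 0.24 and 0.29 in the 4 monocytic-like clusters. Thus Rplp1 was lower in the library labelled 4T1m in both lineages while Rplp0 was higher in monocytic-like cells, with a ratio of 0.05 (-0.24 to 0.35) in granulocytic-like cells. Rplp2 stood between them, at -0.30 and -0.41.

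Rps26 (ENSMUSG00000025362, GRCm38 chr10:128624534-128626747, minus strand) was 1015 CPM (4T1p) and 579 CPM (4T1m) in monocytic-like cells, and 188 and 108 CPM in granulocytic-like cells. In each of the 8 clusters it was lower in the library labelled 4T1m, by ratios from -0.84 to -0.60. In every granulocytic-like cluster Rps26 held fewer UMIs than the minimum for a call. The intervals there were -1.26 to -0.32 (cluster 2) and -1.24 to -0.28 (cluster 3). In clusters 6 (-1.63 to 0.02) and 8 (-1.51 to 0.02) the interval held both signs, so the direction was not settled there. Of the 90-base windows at the end of Rps26 51.1% are shared with other genes, and of those of Rplp1 38.6%. The level of Rpl11, which with Rpl5 binds Mdm2, was 1490 and 951 CPM in monocytic-like and 271 and 135 CPM in granulocytic-like cells.

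**Figure D5:**
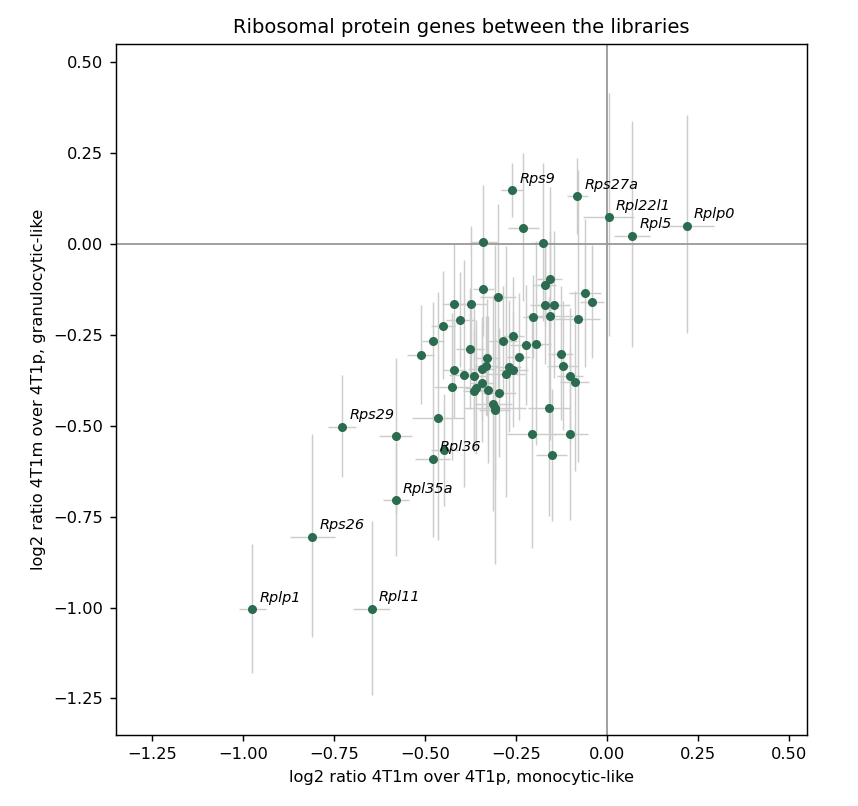
Log2 ratio of CPM, 4T1m over 4T1p, of the 66 ribosomal protein genes with at least 200 UMIs in each lineage, monocytic-like cells on the horizontal and granulocytic-like cells on the vertical axis, with 95% counting intervals. Most points lie below 0 on both axes, Rplp1, Rpl11 and Rps26 lie farthest down, and both axes rest on the same 2 libraries.

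Genes that work with the ribosome were compared between the libraries in monocytic-like cells. At 1.5-fold, 22.8% of all 5462 genes were higher in the library labelled 4T1m and 6.22% lower. None of the 18 ribosome parts and genes listed for an oligopyrimidine start passed 1.5-fold, with a median of -0.11. The same held for the 60 mitochondrial ribosomal protein genes, with a median of -0.25. Of 16 ribosome biogenesis genes 2 were higher in the library labelled 4T1m, with a median of 0.31, Nop58 standing at 0.91. Of 5 regulators 1 was higher, Rptor, a part of the growth kinase complex mTORC1, at 1.28.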

How the data were processed

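The authors aligned 10x Genomics 3′ reads of GR-1+ cells to mm10 (GRCm38) with Cell Ranger (version 3.1.0 in the matrix headers) and deposited the raw counts (UMIs of each gene in each barcode that the software had called a cell). Barcodes were kept with 250 to 5000 genes, at most 27000 UMIs and at most 12.5% mitochondrial UMIs. Doublets and cells without Ptprc were kept, and both filters were tried as alternatives. The Ptprc filter was not tried for the comparison of clusters within a lineage. Both libraries were clustered together with SCTransform (3000 variable genes, from which 16 ribosomal protein genes were removed), 11 principal components and a resolution of 0.8. Clusters were named from marker lists.

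Counts were summed per group and library. Shares have exact binomial 95% intervals and CPM exact Poisson ones, and log2 ratios have intervals from the exact binomial split. A call was at least 1.5-fold with at least 200 UMIs over both groups. The per-gene ratio and the 1.5-fold call were tested on simulated Poisson counts, which hold no variation between cells or libraries. Clustering, cluster naming, shares and start windows were not tested in this way.

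Named genes are the 6 highest and 6 lowest between lineages, the 5 highest and 5 lowest between libraries, the 5 with most and the 5 with fewest UMIs, stalk genes, Rpsa, Rps27a, paralogs, and genes of lists. Others were named after their values were seen, and a few genes are not reported here. The genes, lists and comparisons were chosen with earlier results of these data known. Cell Ranger leaves out reads that fit several genes, and its effect on each level was not tested. Depth was 9021132 and 14840190 UMIs in the libraries labelled 4T1p and 4T1m.

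Software was Python 3.11.15 (scanpy 1.11.5 with Scrublet, scipy 1.17.1, numpy 2.4.6, matplotlib 3.10.9, pandas 2.3.3) and R 4.3.3 (Seurat 5.3.0, sctransform 0.4.2, Matrix 1.6.5). Start sequences are from RefSeq GRCm38.p6 and gene places from GENCODE vM21. Bone marrow, flow cytometry and human data were not analysed here.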

Additional observations from a re-analysis of the deposited data

Results flagged for a closer look

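Barcodes outside the filters also held ribosomal protein UMIs. The share was 1.198% in the 265 barcodes with fewer than 250 genes, whose median mitochondrial share was 88.8% (89.9% for 4T1p and 19.7% for 4T1m). It was 15.8% in the 116 with over 27000 UMIs or 5000 genes (17.7% for 4T1p and 13.9% for 4T1m), and 5.66% in the 789 that failed the mitochondrial limit alone. The comparisons above leave these barcodes out, and those over the mitochondrial limit entered only the alternative without that limit.

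Between the libraries, 2 genes had intervals on opposite sides of 0 in the lineages, and the difference between the lineages was not tested. The log2 ratio of Rps9, 4T1m over 4T1p, was -0.26 (-0.29 to -0.23) in monocytic-like and 0.15 (0.07 to 0.22) in granulocytic-like cells. Within clusters it ran from -0.28 to -0.09 in the 4 monocytic-like and from 0.01 to 0.12 in the 4 granulocytic-like ones, below the pooled 0.15. The interval lay below 0 in monocytic-like clusters 1, 5 and 7, included 0 in cluster 4, and included 0 in all 4 granulocytic-like clusters. That of Rps27a was -0.0809 (-0.11 to -0.05) and 0.13 (0.03 to 0.24). Within clusters the signs of Rps27a were mixed in both lineages, with values of 0.04, -0.04, -0.09 and 0.17 in clusters 1, 4, 5 and 7 and of -0.03, 0.19, 0.02 and -0.04 in clusters 2, 3, 6 and 8.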

How the results depend on the processing

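The shares below kept their direction under the alternatives run. The counts of genes below take higher and lower genes together, so their direction was not followed. Single genes that turned relative to the median of all genes are named in the report. Between the lineages these were Rps9, Rps27rt, Rpl10 and Rpl21. Between the libraries they were Rpl5 and Rpl22l1 in monocytic-like cells. In granulocytic-like cells they were Rpl22l1, Rplp0, Rpl24, Rpl5, Rpl30 and Rps4x. No paired analysis was possible because each condition has 1 library and no result comes from a test. Each set of values below is given where it moved beyond the counting interval or, for counts of genes, by over 1.5 times.

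The log2 ratio of the share between the lineages (2.32) was 2.41 without the barcodes of highest Scrublet scores, 2.40 at most 5% mitochondrial UMIs, 2.23 with no such limit, 2.33 from 1000 UMIs, 2.48 at 2000 to 10000 UMIs, 2.36 with mitochondrial and ribosomal RNA genes out of the totals, 1.36 relative to the median of all genes, 2.33 with ribosomal protein genes kept for clustering, 2.38 and 2.34 at resolutions of 0.4 and 1.2, 2.34 after log-normalization, 2.36 as a mean over barcodes, and 2.31 and 2.25 in the libraries labelled 4T1p and 4T1m. With cluster 0 counted as monocytic-like, an alternative chosen after seeing the data, it was 2.38. The number of genes past 1.5-fold stayed between 72 and 81, and the share of all genes called at these settings is not given beside it. In the main setting 57.8% of all genes were higher in monocytic-like cells and 17% lower.

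For 4T1m over 4T1p in monocytic-like cells (-0.31) the values were -0.26 with a Ptprc UMI required, -0.37 and -0.24 for the mitochondrial limits, -0.30 from 1000 UMIs, -0.50 at 2000 to 10000 UMIs, -0.29 for the totals, -0.45 relative to the median, -0.31 with the genes kept for clustering, -0.29 at resolution 0.4, -0.30 after log-normalization and -0.39 as a mean over barcodes. The alternatives chosen after seeing the data gave -0.29 with cluster 0 and -0.21 as the mean within clusters. In granulocytic-like cells (-0.25) they were -0.22 with Ptprc, -0.23 at most 5% mitochondrial UMIs, -0.29 at 2000 to 10000 UMIs, -0.33 relative to the median, -0.30 after log-normalization, -0.30 as a mean over barcodes and -0.28 as the mean within clusters.

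The 9 genes past 1.5-fold in monocytic-like cells became 25 at 2000 to 10000 UMIs, 19 relative to the median, 15 with a minimum of 1 UMI and 1 at 2-fold. The 5 in granulocytic-like cells became 8 with no mitochondrial limit, 12, 10, 8 after log-normalization, 15 and 2. These counts take higher and lower genes together, and the shares of all genes called are not given beside them. The cluster 4 over 5 ratio (0.63), with settings chosen after seeing the data, was 0.54 and 0.69 in the libraries labelled 4T1p and 4T1m and 0.93 at 2000 to 10000 UMIs. The cause of these shifts was not tested. Between the libraries, 66 genes reached 200 UMIs in granulocytic-like and 79 in monocytic-like cells.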

Other observations

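The unnamed cluster 0, outside the comparisons, had a ribosomal protein share of 18.8%, 19.9% by the label 4T1p and 18.04% by the label 4T1m. Its level of the monocytic list was 16186 CPM and that of the epithelial or tumor cell list 188 CPM. Rps9 stood there at 4070 and 4295 CPM, and Rplp1 at 4345 and 2489 CPM, in the libraries labelled 4T1p and 4T1m.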
